A study of Mus musculus with 16 samples.

Results

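The 10 genes described here encode the vesicular glutamate transporters and ionotropic glutamate receptor subunits of sensory neurons: *Slc17a6*, *Slc17a7* and *Slc17a8*, the AMPA receptor subunits *Gria1*, *Gria2* and *Gria4*, the kainate receptor subunits *Grik1* and *Grik2*, and the NMDA receptor subunits *Grin1* and *Grin2b*. They were taken by symbol from the 22609 genes counted in each library, and all 10 were found. RNA-seq was performed on TdTomato+ sensory neurons sorted from Pirt cre/- Rosa26 LSL-tdTomato/+ reporter mice, in which Cre under control of the sensory neuron gene *Pirt* switches on a red fluorescent protein. The mice were naïve young adults on the C57BL/6J strain and were labelled male. Neurons came from the trigeminal ganglion (TG), the nodose/jugular ganglion complex (NG/JG) and dorsal root ganglia of T10-L1 and of L3-L5 (T10-L1 DRG and L3-L5 DRG), with 4 libraries from each, 16 in all. The 4 groups carried the same alleles and received no treatment, left and right ganglia were used, and brightly fluorescent cells were sorted in repeated cycles. Each library is described as a separate sort. A sensory neuron that never expressed *Pirt*, or expressed the reporter weakly, was outside this gate.

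Sensory neurons of these ganglia use glutamate as their fast transmitter. A vesicular transporter loads it into synaptic vesicles at the central terminals, and *Slc17a6* (VGLUT2), *Slc17a7* (VGLUT1) and *Slc17a8* (VGLUT3) are the transporters known to do so. AMPA receptors carry most fast excitation, and the subunit GluA2, encoded by *Gria2*, makes them impermeable to calcium. Kainate receptors with the subunit GluK1, encoded by *Grik1*, are known from small-diameter DRG neurons, where they act on the neuron itself. NMDA receptors need the obligatory subunit GluN1, encoded by *Grin1*, together with a GluN2 subunit such as GluN2B, encoded by *Grin2b*.

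Libraries held between 4735624 and 13333318 reads on genes. A floor of 3 counts equalled 0.225 to 0.633 CPM, the count scaled to a library's reads on genes, and covers counting error only. The summed level of 9 sensory neuron markers, the list led by *Uchl1* and *Prph*, differed between libraries of one ganglion. It was 741 to 3082 CPM in TG and 1080 to 3777 CPM in NG/JG. The T10-L1 DRG libraries had 1625 to 3652 CPM and the L3-L5 DRG libraries 945 to 10480 CPM. The lowest library of each ganglion was TG 1, NG/JG 1, T10-L1 DRG 1 and L3-L5 DRG 4. Of the reads counted to a gene, to no gene or ambiguously, 66.6% were assigned to no gene in L3-L5 DRG 4. This was the highest share of the 16 libraries, where the lowest was 29.6%. RNA of other cells was present in every library: the 4 satellite glia markers, led by *Apoe* and *Fabp7*, summed to between 11349 and 61689 CPM and the 4 Schwann cell markers, led by *Pmp22*, to between 5127 and 24383 CPM. All 16 libraries had reads on *Xist*, from 1279 to 8362, and 0 reads on 13 counted genes of chromosome Y, which goes against the label male in every group alike. In bulk samples such as these, fewer neurons of a type and less RNA per neuron cannot be told apart.

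*Slc17a6* was the most abundant vesicular glutamate transporter per length in all 16 libraries (RPKM scale, the CPM divided by the exon length in kilobases). It made up between 69.6% and 100% of the summed RPKM of the 3 transporters, with a median of 96.7%. Its mean level was 6.89 ± 4.41 RPKM in TG and 16.2 ± 7.57 RPKM in T10-L1 DRG. It was 31.9 ± 32.1 RPKM for NG/JG and 41.7 ± 32.6 RPKM for L3-L5 DRG (SD, n = 4 each). Neighbours in this order overlapped between their libraries. *Slc17a6* lies on chromosome 7 of mm9 from 58877200 to 58926495 on the plus strand, and its exons overlap no other annotated gene.

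By library, *Slc17a6* had 2.92, 39.3, 30.4 and 46.4 CPM in TG 1 to 4. In NG/JG it had 58.4, 180, 313 and 0.207 CPM. L3-L5 DRG libraries had 119, 204, 364 and 33.4 CPM. T10-L1 DRG libraries had 42.5, 101, 95.1 and 41.2 CPM. TG 1 and NG/JG 4 were far below the other libraries of their ganglia, and in NG/JG 4 only 2 reads fell on the gene although its neuron markers summed to 1741 CPM. The fold change of TG against L3-L5 DRG was -2.20 ± 0.86 on the log2 scale (4.59-fold lower in TG), with an unadjusted p of 0.0280 and an adjusted p of 0.205 by edgeR's quasi-likelihood test. The groups overlapped, since L3-L5 DRG 4 lay within the range of TG. DESeq2 gave this difference an adjusted p of 0.0486, and it was 0.0153 by edgeR without the library with the fewest neuron marker reads of each ganglion. Over all 15 alternatives the adjusted p ranged from 0.0153 to 0.491, and the log2 fold change was between -2.79 and -1.57.

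The spread of *Slc17a6* in the DRG moved with neuron marker reads. In L3-L5 DRG the highest library was 10.9 times the lowest in CPM, and 1.67 times when reads were expressed per 1000 reads on the 9 neuron markers. In T10-L1 DRG these ratios were 2.46 and 1.58. Per 1000 neuron marker reads, T10-L1 DRG had 20.4 to 32.1 *Slc17a6* reads and L3-L5 DRG 21.1 to 35.3, ranges that overlap. NG/JG 1 to 3 lay above both, at 51.7 to 82.8, NG/JG 4 lay below every other library, at 0.119, and TG had 3.94 to 22.4. *Gria4* and *Grik2* behaved otherwise: in L3-L5 DRG the highest library was 2.16 and 1.65 times the lowest in CPM, and 20.9 and 13 times per 1000 neuron marker reads, with L3-L5 DRG 4 the highest. These ratios are a description with no test. Of the 9 markers, edgeR called 1 over the 4 ganglia, *Avil*, an actin-binding protein of sensory neurons (adjusted p = 0.0226), against 3.01% of all genes. At an unadjusted p under 0.05 there were 2 of 9, against 17.5% of all genes. The part of neuron content in the CPM differences was not tested.

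**Figure D1:**
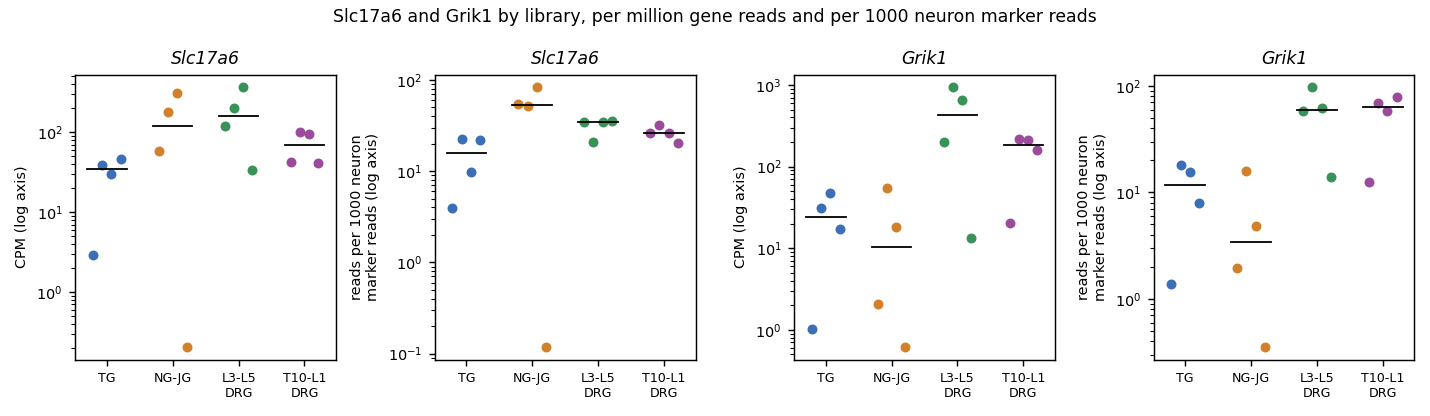
*Slc17a6* and *Grik1* in each library (points, n = 4 per ganglion; line, median) as CPM and as reads per 1000 reads on the 9 sensory neuron markers, on log axes. *Slc17a6* per 1000 marker reads lies between 20.4 and 35.3 in all 8 DRG libraries. For *Grik1* the highest L3-L5 DRG library is 70 times the lowest in CPM and 6.86 times per 1000 marker reads. In T10-L1 DRG these ratios of *Grik1* are 10.7 and 6.27.

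*Slc17a7* and *Slc17a8* were near the floor. *Slc17a7* had 0, 13, 3 and 42 reads in TG 1 to 4, and 0, 5, 0 and 0 reads in NG/JG. Its reads were 20, 26, 0 and 11 in T10-L1 DRG, and 4, 0, 17 and 2 for the L3-L5 libraries. *Slc17a8* had 11, 0, 37 and 1 reads in TG, and 0, 65, 53 and 0 reads in NG/JG. Its reads were 8, 0, 11 and 2 in T10-L1 DRG, and 7, 54, 1 and 4 for the L3-L5 libraries. Neither had a ganglion in which all 4 libraries were above 3 counts. The highest mean of *Slc17a7* was 0.889 ± 1.14 RPKM, in TG, and that of *Slc17a8* was 0.78 ± 0.9 RPKM, in NG/JG (SD, n = 4 each). *Slc17a7* is annotated on chromosome 7 from 52419291 to 52431508 (plus strand) and *Slc17a8* on chromosome 10 from 89036765 to 89083998 (minus strand). Their share of the transporters was largest in TG, where *Slc17a7* took up to 18.9% (TG 4) and *Slc17a8* up to 30.4% (TG 1, from 34 reads on the 3 genes together).

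The bases upstream of the start of the 3 transporters are shown because the levels of these family members differ so widely. Those of *Grik2* are shown because its TG libraries lay below those of the other ganglia in CPM. The sequences are the 250 bases before the start in RefSeq's promoter table for GRCm38.p6, a later build than the mm9 of the counts. The table matched 7 of the 10 genes; *Gria1*, *Grik1* and *Grin2b* were not matched. For *Slc17a6* and *Slc17a8*, which have 2 starts each, the more upstream one is shown. Coordinates are chr7:51621580-51621829 (plus strand), chr7:45163671-45163920 (plus strand), chr10:89621250-89621499 (minus strand) and chr10:49788755-49789004 (minus strand). Capitals mark the GC box, GGGCGG on either strand, the only one of the 4 motifs searched that occurred in these windows.
Slc17a6: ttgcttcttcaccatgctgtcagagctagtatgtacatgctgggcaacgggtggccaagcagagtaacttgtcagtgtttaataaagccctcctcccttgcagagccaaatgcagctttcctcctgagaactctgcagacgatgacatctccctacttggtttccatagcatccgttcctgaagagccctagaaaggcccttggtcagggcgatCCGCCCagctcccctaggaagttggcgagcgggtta
Slc17a7: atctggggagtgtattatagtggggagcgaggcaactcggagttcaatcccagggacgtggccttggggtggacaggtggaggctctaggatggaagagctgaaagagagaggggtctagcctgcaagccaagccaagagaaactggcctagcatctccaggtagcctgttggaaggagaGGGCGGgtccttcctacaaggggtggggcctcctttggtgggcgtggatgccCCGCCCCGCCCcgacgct
Slc17a8: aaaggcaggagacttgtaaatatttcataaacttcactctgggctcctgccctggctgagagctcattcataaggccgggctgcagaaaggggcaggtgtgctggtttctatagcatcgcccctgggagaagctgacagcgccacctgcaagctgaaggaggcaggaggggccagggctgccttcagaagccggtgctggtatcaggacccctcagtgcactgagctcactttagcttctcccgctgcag
Grik2: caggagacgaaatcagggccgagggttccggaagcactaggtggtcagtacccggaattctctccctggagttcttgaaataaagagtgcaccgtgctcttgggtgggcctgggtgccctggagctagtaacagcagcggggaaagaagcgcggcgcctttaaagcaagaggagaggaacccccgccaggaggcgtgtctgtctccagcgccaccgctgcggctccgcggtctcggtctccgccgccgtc
The GC box occurred 1 time upstream of *Slc17a6*, 3 times upstream of *Slc17a7* and 0 times upstream of *Slc17a8* and *Grik2*, against 32.7% of all 32851 windows of this length that held it. TATAAA, TGACGTCA and CAGCTG, each searched on both strands, were in none of the 4 windows and in 12.4%, 1.55% and 13% of all windows. The GC content was 53.2% for *Slc17a6*, 61.2% for *Slc17a7*, 57.2% for *Slc17a8* and 62.8% for *Grik2*, with a median of 52.4% over all windows.

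On the RPKM scale, *Grik1* had the largest difference between its highest and lowest library of the 10 genes. Its mean was 135 ± 126 RPKM in L3-L5 DRG and 45.7 ± 27.5 RPKM at T10-L1, against 7.33 ± 6.04 in TG and 5.72 ± 7.62 in NG/JG (SD, n = 4 each). In L3-L5 DRG it had 199, 932, 650 and 13.3 CPM in libraries 1 to 4. In T10-L1 DRG it had 20.5, 219, 210 and 160 CPM. In each DRG group 3 libraries were thus above every cranial library, while T10-L1 DRG 1 and L3-L5 DRG 4, which had the fewest neuron marker reads in their ganglia, fell among them. In TG it had 1.02, 31.5, 48.1 and 17 CPM, and in NG/JG 2.09, 55.2, 18.4 and 0.62 CPM. Per 1000 neuron marker reads *Grik1* had 12.6 to 79 reads at T10-L1, 14.1 to 96.6 at L3-L5, 1.37 to 18 in TG and 0.356 to 15.8 in NG/JG. *Grik1* lies on chromosome 16 of mm9 from 87896441 to 88289947 on the minus strand, with no other annotated gene over its exons.

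The test over the 4 ganglia gave *Grik1* an unadjusted p of 0.00733 and an adjusted p of 0.115 (edgeR quasi-likelihood), which does not pass. Its log2 fold change was -3.79 ± 1.25 for TG against L3-L5 DRG (13.9-fold, adjusted p = 0.143) and -4.50 ± 1.47 for NG/JG against L3-L5 DRG (22.7-fold, adjusted p = 0.426). Against T10-L1 DRG it was -2.22 ± 0.96 for TG (4.67-fold, adjusted p = 0.210) and -2.99 ± 1.24 for NG/JG (7.93-fold, adjusted p = 0.745). The unadjusted p of these 4 differences was 0.0116, 0.0120, 0.0420 and 0.0368. None of the 4 passed the adjusted threshold of 0.05 by edgeR, and the fitted level was lower in each cranial ganglion than in each DRG group. DESeq2 gave adjusted p = 0.00611 over the 4 ganglia, 0.00399 for TG against L3-L5 DRG and 0.0095 for NG/JG against L3-L5 DRG, and against T10-L1 DRG it gave 0.0632 for TG and 0.170 for NG/JG, which do not pass. Without the library with the fewest neuron marker reads of each ganglion, edgeR gave adjusted p = 0.0369 over the 4 ganglia, 0.0085 for TG against L3-L5 DRG and 0.00396 for TG against T10-L1 DRG, while NG/JG did not pass against L3-L5 DRG (0.227) or T10-L1 DRG (0.397). Over all alternatives tried the adjusted p ranged from 0.00608 to 0.248 for the 4 ganglia and from 0.00399 to 0.327 for TG against L3-L5 DRG. For NG/JG against L3-L5 DRG it ranged from 0.0095 to 0.828, and for TG against T10-L1 DRG from 0.00396 to 0.529. None of the 15 alternatives passed for NG/JG against T10-L1 DRG, with a lowest adjusted p of 0.170. L3-L5 DRG against T10-L1 DRG had a log2 fold change of 1.55 ± 1.04 (adjusted p = 0.817), and TG against NG/JG one of 0.67 ± 1.5 (adjusted p = 0.960).

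*Grik2*, the GluK2 subunit that forms kainate receptors with GluK1, had another order. It had 0.254, 3.34, 13.7 and 16 CPM in TG. In NG/JG it had 26, 41.3, 56.9 and 91.1 CPM. T10-L1 DRG had 54.1, 101, 66.6 and 20.1 CPM, and L3-L5 DRG 48.8, 56.7, 34.3 and 40.1 CPM. Every TG library was below every library of each other ganglion. The mean was 1.01 ± 0.931 RPKM in TG, 5.44 ± 1.19 in L3-L5 DRG, 6.51 ± 3.37 in NG/JG and 7.29 ± 4.02 in T10-L1 DRG (SD, n = 4 each). By edgeR the log2 fold change of TG was -2.43 ± 0.97 against T10-L1 DRG (unadjusted p = 0.0309, adjusted p = 0.175). It was -2.52 ± 1.23 against NG/JG (adjusted p = 0.535) and -2.01 ± 0.97 against L3-L5 DRG (adjusted p = 0.305). DESeq2 gave adjusted p = 0.0440 for TG against T10-L1 DRG, and the range over the alternatives was 0.0375 to 0.363, the lowest without TG 1. *Grik2* lies on chromosome 10 from 48819266 to 49508572 (minus strand). Between NG/JG and T10-L1 DRG the log2 fold change was -0.02 ± 0.64, and L3-L5 DRG stood at -0.44 ± 0.43 against T10-L1 DRG (adjusted p = 0.860, edgeR).

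The makeup of the kainate subunits differed with the library. *Grik1* took a median of 76.5% of the summed RPKM of *Grik1* to *Grik5* in T10-L1 DRG (range 30.7% to 87.3%), 85.9% in L3-L5 DRG (23.8% to 92.5%), 47.1% in TG (7.71% to 61.9%) and 13.3% in NG/JG (1.65% to 57.1%). It was the leading kainate subunit in 10 of 16 libraries, 6 of them from DRG. *Grik3* led in NG/JG 1, NG/JG 3 and L3-L5 DRG 4, *Grik2* in NG/JG 4 and T10-L1 DRG 1, and *Grik5*, a subunit that works only with a partner, in TG 1. NG/JG 4 was the extreme case, with 97.8% *Grik2* and 6 reads on *Grik1*. The same library had 2 reads on *Slc17a6*, 1 on *Grin1* and the highest *Gria4* of all, and the fewest genes with reads, 10132.

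**Figure D2:**
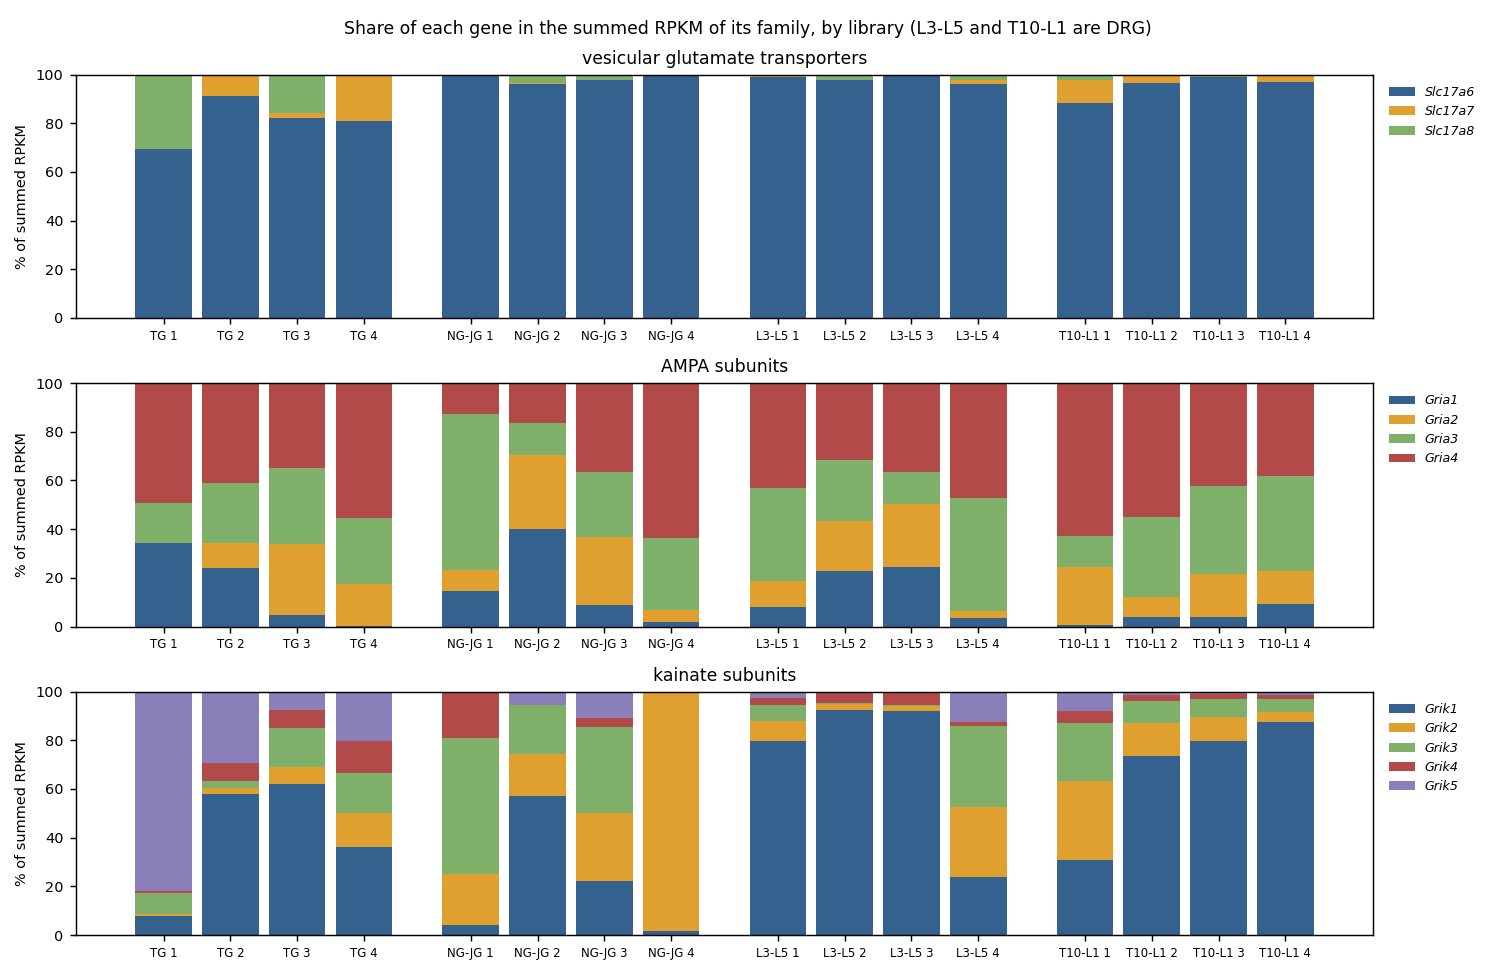
Share of each gene, in percent of the summed RPKM of its family, in each of the 16 libraries, for the vesicular transporters, the AMPA subunits and the kainate subunits. *Slc17a6* fills at least 69.6% of every transporter bar, *Gria4* is the largest AMPA share in 13 libraries, and *Grik1* is the largest kainate share in 10.

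*Gria4*, which encodes the AMPA subunit GluA4, was the leading AMPA subunit per length in 13 of 16 libraries, with a median share of 41.5% of *Gria1* to *Gria4*. Its mean was 11.6 ± 16 RPKM in NG/JG, 8.67 ± 3.48 in T10-L1 DRG, 7.76 ± 2.78 in L3-L5 DRG and 4.55 ± 2.14 in TG (SD, n = 4 each). In NG/JG it had 14.6, 14.2, 39.8 and 222 CPM, so that the mean rests on NG/JG 4. It had 46.8, 25, 14.8 and 27.6 CPM in TG. The T10-L1 DRG libraries had 77.2, 64.8, 48.7 and 26.7 CPM and the L3-L5 DRG libraries 37.4, 30.2, 65.1 and 61.9 CPM. All 4 ganglia overlapped, and the adjusted p over them was 0.840 (edgeR). *Gria4* lies on chromosome 9 from 4417899 to 4796234 (minus strand). Its lowest library had 86 reads, more than the lowest library of any other member.

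*Gria2*, the subunit that sets calcium permeability, had 0.127, 6.89, 13.7 and 9.48 CPM in TG and 11, 29, 33.6 and 19.5 CPM in NG/JG. It had 32.4, 10.5, 22.8 and 10.6 CPM in T10-L1 DRG and 10.3, 22, 50.5 and 4.22 CPM in L3-L5 DRG. Its median share of the AMPA subunits was 15.4%, between 0.12% and 30.4%, and it led in none of the 16 libraries. The means were 1.09 ± 0.82 RPKM in TG, 2.74 ± 1.53 in T10-L1 DRG, 3.13 ± 2.95 in L3-L5 DRG and 3.35 ± 1.45 in NG/JG (SD, n = 4 each), and the adjusted p over the 4 ganglia was 0.945 (edgeR). *Gria2* lies on chromosome 3 from 80488858 to 80606713 (minus strand).

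*Gria1*, the GluA1 subunit, had 31.5, 14.2, 1.89 and 0.176 CPM in TG, which is a spread from 248 reads to 1. It had 16.1, 33.2, 9.40 and 5.58 CPM in NG/JG, 0.917, 4.66, 4.36 and 6.08 in T10-L1 DRG, and 6.61, 21.1, 42.1 and 4.43 in L3-L5 DRG. The lowest mean was 0.662 ± 0.362 RPKM, in T10-L1 DRG, and the highest 3.07 ± 2.87 RPKM, in L3-L5 DRG (SD, n = 4 each). L3-L5 DRG was above T10-L1 DRG by 2.19 ± 0.91 on the log2 scale, with an unadjusted p of 0.0380 and an adjusted p of 0.785 by edgeR, and their libraries overlapped. *Gria1* lies on chromosome 11 from 56824889 to 57143746 (plus strand). *Gria3*, an AMPA subunit beside the 10 members, had a mean of 5.37 RPKM over the 16 libraries and led in 2 of them.

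*Grin1*, the obligatory NMDA receptor subunit, had 0, 2.56, 11 and 15.5 CPM in TG and 7.10, 15.2, 54.6 and 0.103 CPM in NG/JG. It had 19.3, 9.99, 14.2 and 3.30 CPM in T10-L1 DRG and 21.5, 73.6, 88.1 and 9.29 CPM in L3-L5 DRG. The means were 0.748 ± 0.743 RPKM in TG, 1.21 ± 0.697 in T10-L1 DRG, 1.99 ± 2.51 in NG/JG and 4.96 ± 3.98 in L3-L5 DRG (SD, n = 4 each). L3-L5 DRG 2 and 3, which had the most neuron marker reads, were highest. Per 1000 neuron marker reads the 4 L3-L5 DRG libraries had 6.26 to 9.83 *Grin1* reads, a ratio of 1.57 between highest and lowest against 9.48 in CPM. The log2 fold change of L3-L5 DRG against T10-L1 DRG was 2.05 ± 0.78, with an unadjusted p of 0.0259 and an adjusted p of 0.785 (edgeR), and the groups overlapped. *Grin1* lies on chromosome 2 from 25146701 to 25174707 (minus strand), and 13.5% of its exon length overlaps *E130003G02Rik* on the other strand, so that reads there could not be assigned without strand.

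*Grin2b*, a GluN2 partner subunit, was near the floor. It had 0, 6, 8 and 3 reads in TG, 0, 4, 0 and 0 in NG/JG, 17, 1, 13 and 14 in T10-L1 DRG, and 4, 0, 0 and 49 in L3-L5 DRG. The 49 reads of L3-L5 DRG 4 came from the library with the most genes detected, 18571, and the fewest reads on genes. *Grin2b* passed the filter on low counts in 1 of the 6 pairs, L3-L5 against T10-L1 DRG, with a log2 fold change of 1.05 ± 1.87 (adjusted p = 0.923, edgeR). It lies on chromosome 6 from 135679844 to 136123529 (minus strand). The other GluN2 genes were also low, with means over the 16 libraries of 0.0158 RPKM for *Grin2a*, 0.0917 for *Grin2c* and 0.314 for *Grin2d*, against 0.146 for *Grin2b*.

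**Figure D3:**
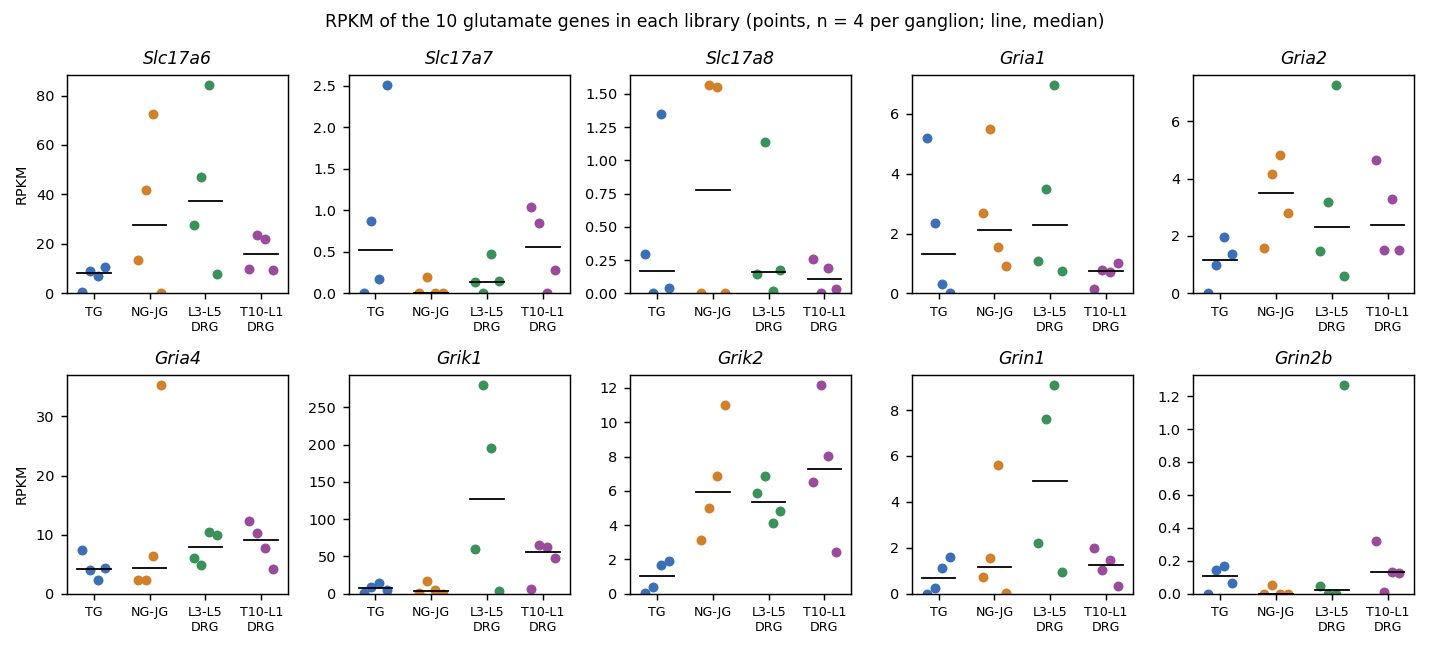
RPKM of the 10 genes in each library (points, n = 4 per ganglion; line, median), on a linear axis of its own for each gene. *Grik1* reaches 280 RPKM in L3-L5 DRG, *Slc17a7*, *Slc17a8* and *Grin2b* stay at or below 2.51 RPKM, and single libraries stand far above the rest for *Gria4* in NG/JG and *Grin2b* in L3-L5 DRG.

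By edgeR's quasi-likelihood test, 0 of the 9 members tested differed over the 4 ganglia at an adjusted p under 0.05, where 3.01% of all 14236 genes tested did. At an unadjusted p under 0.05 it was 1 of 9, *Grik1*, against 17.5% of all genes. DESeq2 called 1 of 9, again *Grik1*, against 11.7% of all genes. A pair of members near the floor, *Slc17a7* and *Slc17a8*, are among the 9, and *Grin2b* did not pass the filter. The smallest adjusted p was 0.115.

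TG and NG/JG, the cranial ganglia, were compared over 8 members. edgeR called 0 of 8 against 0.051% of all genes, 0 of 8 had an unadjusted p under 0.05 against 10%, and DESeq2 called 0 of 8 against 3.91%. The median log2 fold change of the 8 was -1.22 and 7 were lower in TG, while the median over all genes was -0.05 and that of the 9 neuron markers -0.33. One of the 10 members, *Grik2*, did not overlap between the libraries, against 7.32% of all genes with reads, which is near the background share. Without TG 1, edgeR called 0 of 8 members and 325 of 12603 genes. Without any other single library it called at most 31 genes.

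TG and L3-L5 DRG were compared over 7 members, of which all 7 had a lower fitted level in TG, with a median log2 fold change of -2.01 against -0.03 over all genes. edgeR called 0 of 7, as it called 0% of all genes. *Slc17a6* and *Grik1*, 2 of 7, had an unadjusted p under 0.05, against 18.2% of all genes, and DESeq2 called the same 2 genes, against 11.3%. *Grik2* was again the 1 of 10 that did not overlap, against 10.7%. Of the 9 neuron markers, all 9 were lower in TG, with a median log2 fold change of -1.30, and the part of neuron content in the lower levels of the members was not tested. The 0% called by edgeR changed with the libraries, the test and the fit. With TG 1 kept, edgeR's likelihood-ratio test called 858 of 12900 genes and 1 of 7 members. The fit of all 16 libraries called 206 of 14236 genes and 0 of 9 members. Without TG 1, the quasi-likelihood test called 2038 of 13365 genes and 0 of 7 members. Without any other single library the quasi-likelihood test called at most 1 gene.

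TG against T10-L1 DRG had the most genes called of the 6 pairs. edgeR called 5.87% of all genes, 21.6% had an unadjusted p under 0.05, and DESeq2 called 15.1%. Of the 8 members tested edgeR called 0. *Grik1* and *Grik2* had an unadjusted p under 0.05, and DESeq2 called 1, *Grik2*. The median log2 fold change of the 8 was -0.69, and 6 were lower in TG. The neuron markers had a median of -0.06 in this pair. *Grik2* was the 1 of 10 that did not overlap, against 13%. Without TG 1, edgeR called 1 of 8 members, *Grik2*, and 3583 of 13410 genes. Without any other single library it called at most 119 genes.

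NG/JG was compared with each DRG group over 7 members. Against L3-L5 DRG, edgeR called 0 of 7 (0% of all genes), *Grik1* alone had an unadjusted p under 0.05 (6.04% of all genes) and DESeq2 called *Grik1* (2.73%). Against T10-L1 DRG, edgeR called 0 of 7 (0.0322%), *Grik1* alone had an unadjusted p under 0.05 (5.91%) and DESeq2 called 0 of 7 (3.12%). No member was without overlap in either pair, where 5.72% and 7.31% of all genes were. The median log2 fold changes of the 7 members were -0.13 and 0.63, and those of the 9 neuron markers -0.77 and 0.09.

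L3-L5 and T10-L1 DRG were compared over 8 members, with 6 higher in L3-L5 DRG and a median log2 fold change of 1.21. All 9 neuron markers also had a higher fitted level in L3-L5 DRG, with a median of 1.37, and the part of neuron content in the member levels was not tested. edgeR called 0 of 8 (0% of all genes), *Gria1* and *Grin1* had an unadjusted p under 0.05 (6.07%) and DESeq2 called 0 of 8 (0.295%). No member was without overlap, against 2.67% of all genes. The 6 pairs share libraries, so the counts of one pair are not independent of those of another.

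**Figure D4:**
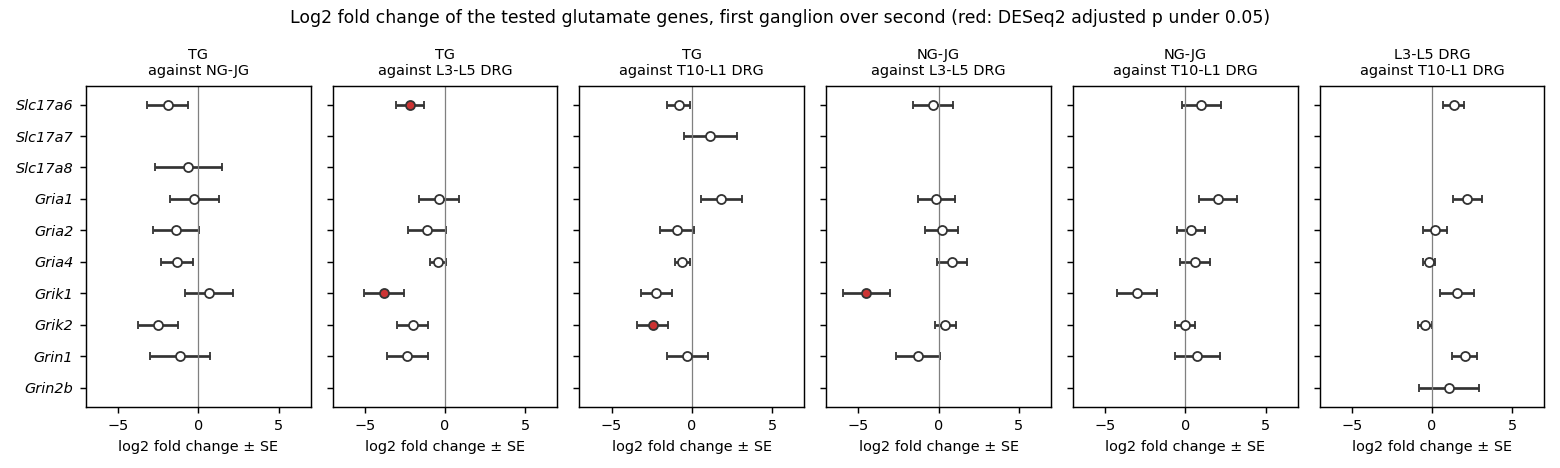
Log2 fold change ± SE of each tested member in the 6 pairs, first ganglion over second, by edgeR. Filled red points mark an adjusted p under 0.05 by DESeq2: *Slc17a6* and *Grik1* for TG against L3-L5 DRG, *Grik2* for TG against T10-L1 DRG and *Grik1* for NG/JG against L3-L5 DRG.

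Of the 11 other ionotropic subunit genes, 8 were tested and 0 passed the adjusted edgeR threshold in any of the 7 comparisons, where 6.34% of all genes tested did in at least 1 of them. At an unadjusted p under 0.05 in at least 1 comparison there were 6 of 8, against 36% of all genes, and DESeq2 called 1, against 22.2%. Of the 8 metabotropic receptors, 3 were tested and 0 passed, with 1 at an unadjusted p under 0.05 and the same gene, *Grm7*, called by DESeq2. After *Gria3*, *Grik3* was the highest of the ionotropic group, with 4.04 RPKM on average over the 16 libraries, followed by *Grik4* (2.50), the orphan subunit gene *Grid1* (2.25) and *Grik5* (1.76). The means of *Grin2a*, *Grin2c*, *Grin2d*, *Grin3a* and *Grin3b* were at or below 0.314 RPKM. For *Grik5*, TG against T10-L1 DRG had a log2 fold change of 1.90 ± 0.77 by edgeR (adjusted p = 0.181), which DESeq2 called (adjusted p = 0.0305), with means of 3.16 RPKM in TG and 1.11 in T10-L1 DRG. *Grm7*, a presynaptic group III receptor, was the highest metabotropic receptor at 6.02 RPKM, and the other 7 were at or below 0.513 RPKM. Its mean was 1.16 ± 1.03 RPKM in TG, 1.67 ± 1.96 in NG/JG, 4.48 ± 1.60 in T10-L1 DRG and 16.8 ± 16.5 in L3-L5 DRG (SD, n = 4 each), and DESeq2 called it for TG against L3-L5 DRG (adjusted p = 0.0153, edgeR adjusted p = 0.163). The order of the ganglia by mean was L3-L5 DRG, T10-L1 DRG and then the cranial ganglia for *Grm7* as for *Grik1*, although TG and NG/JG stood in the opposite order.

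**Figure D5:**
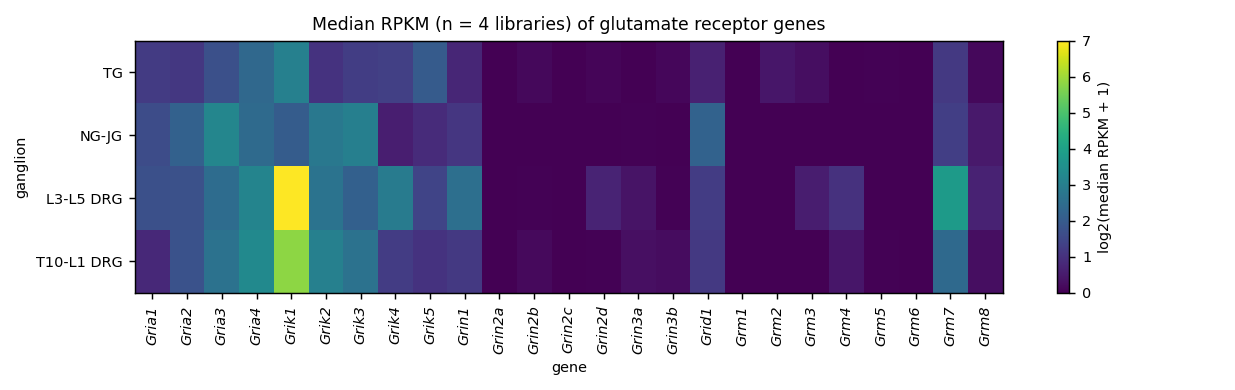
Median RPKM over the 4 libraries of each ganglion, as log2(median RPKM + 1), for glutamate receptor genes. *Grik1* stands highest in both DRG groups, *Grm7* is the brightest metabotropic gene in all 4 ganglia, and the GluN2 and GluN3 genes are near 0.

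Of the genes that work with these receptors, the 14 auxiliary subunits of AMPA and kainate receptors had 10 tested, 0 called by edgeR and 0 by DESeq2 in any comparison, with 5 of 10 at an unadjusted p under 0.05 in at least 1 (36% of all genes). They were led by *Cacng5* (2.52 RPKM) and *Neto2* (1.79), an auxiliary subunit of kainate receptors. The 14 scaffold proteins had 0 calls by edgeR and 4 of 14 at an unadjusted p under 0.05 in at least 1 comparison, a share below that of all genes, and were led by *Nsf* (16.7 RPKM), a vesicle fusion ATPase that binds GluA2, and *Pick1* (6.54). DESeq2 called *Nsf* lower in TG than in L3-L5 DRG (adjusted p = 0.0496, edgeR adjusted p = 0.160).

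The 14 genes of glutamate supply and uptake were led by the glutamine carrier *Slc38a2* (89.0 RPKM) and the glutamine synthetase *Glul* (73.8), an enzyme of glia. edgeR called 1 of the 13 tested over the 4 ganglia, the glial glutamate transporter *Slc1a2* (adjusted p = 0.0364), against 3.01% of all genes. It had 0 reads in all 4 NG/JG libraries, 6 to 64 in TG, 70 to 390 reads for T10-L1 DRG and 17 to 138 for L3-L5 DRG. A count of 0 allows up to 0.310 to 0.417 CPM in the NG/JG libraries. DESeq2 called 3 of 13 over the 4 ganglia, *Slc1a2*, *Slc38a2* and the cystine/glutamate exchanger *Slc7a11*, against 11.7% of all genes. It also called *Slc38a2* lower in TG than in NG/JG (adjusted p = 0.00811, edgeR 0.146) and T10-L1 DRG (adjusted p = 0.00691, edgeR 0.0552). The 10 other vesicular and SLC17 transporters had 4 tested and 0 called by either tool, 2 of them at an unadjusted p under 0.05, with *Slc17a5* (9.94 RPKM), the lysosomal sialic acid carrier, and the monoamine carrier *Slc18a2* (5.19) as the highest, and *Slc32a1*, the vesicular GABA carrier, had 0 reads in 14 of 16 libraries.

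The 16 genes of the vesicle release machinery were led by *Cplx1* (114 RPKM) and *Rab3a* (93.5). For TG against L3-L5 DRG, 15 of 16 had a lower fitted level in TG, with a median log2 fold change of -1.25. In that pair edgeR called 0 of them, with 5 of 16 at an unadjusted p under 0.05 against 18.2% of all genes. DESeq2 called 5 of 16 against 11.3%, and among these *Syn1*, *Syt1* and *Vamp2* were lower and *Cplx2* was higher in TG. All 9 neuron markers had a lower fitted level in TG for the same pair.

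The genes most like each member were the 2 with the highest Pearson r of log2(CPM + 1) over the 16 libraries, among 14180 genes that passed a minimum count, as a description of libraries that share ganglia and neuron content. For *Grik1* they were *Acpp* (r = 0.975), known as a marker of nonpeptidergic DRG neurons, and *Serpina3g* (r = 0.950). For *Slc17a6* they were *Abcb9* (r = 0.971) and *Hars* (r = 0.962), and for *Grin1* *Stk11ip* (r = 0.949) and *Atp1b1* (r = 0.927). *Grik2* was most like *Pcmtd1* (r = 0.934) and *Lrrn3* (r = 0.920), *Gria2* most like *Dus1l* (r = 0.902) and *Gnl3l* (r = 0.887), and *Gria4* most like *Inpp1* (r = 0.899) and *Usp48* (r = 0.873). *Gria1* went with *1200011I18Rik* (r = 0.848) and *Ggt7* (r = 0.774), *Slc17a7* with *Hs3st2* (r = 0.826) and *Spata9* (r = 0.817), and *Slc17a8* with *Wbscr27* (r = 0.801) and *Calml4* (r = 0.789).

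Markers of sensory neuron classes and of other cells moved between the ganglia too, and their part in the member levels was not tested. The 4 nonpeptidergic markers, led by *P2rx3* and *Mrgprd*, summed to 42.3 to 140 CPM in TG and 151 to 499 CPM in NG/JG. They summed to 126 to 747 CPM at T10-L1 and 90.6 to 1809 CPM at L3-L5, ranges that overlap those of the cranial ganglia, and *Mrgprd* was called over the 4 ganglia. The 5 peptidergic markers, led by *Calca* and *Tac1*, summed to 43 to 422 CPM in NG/JG, 667 to 2970 in TG, 458 to 2211 at T10-L1 and 517 to 6597 at L3-L5, with *Calcb* called. The 8 large-fibre markers, led by *Spp1* and *Nefm*, summed to 382 to 2169 CPM over the 16 libraries, with *Ntrk2* and *Pvalb* called. The 4 vagal markers, led by *P2rx2* and *Hoxb5* and both called over the 4 ganglia, summed to 142 to 1203 CPM in NG/JG and at most 147 elsewhere. Not all 4 were high in NG/JG: *Glp1r* was at or under the floor in all its libraries. Of the 2 vagal markers tested for NG/JG against T10-L1 DRG, 1 had a lower fitted level in NG/JG. The 8 central neuron markers summed to 0.207 to 279 CPM, and the cortical transcription factors *Neurod6* and *Emx1* were at or under the floor of 3 counts in all 16 libraries.

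Among non-neuronal markers, oligodendrocyte genes (led by *Mag* and *Mobp*, *Mog* called) summed to 468 to 1992 CPM in TG, highest in TG 1, and at most 624 elsewhere. The genes of this list did not go together. *Mag* had at least 522 reads in each of the 16 libraries, *Opalin* was above the floor in 1 library, and *Olig1* had 0 reads in 9. Pituitary genes (led by *Prl* and *Pomc*, both called with *Gh*) summed to 70.8 to 9501 CPM in TG and at most 20.7 elsewhere. The paper assigns *Prl*, *Gh* and *Pomc* to TG neurons, where antibodies also stained their protein products. Of the same list, *Cga*, *Tshb* and *Fshb* were at or under the floor in all TG libraries, and *Lhb* was above it in 1 of 16 libraries. Which cells the reads on these genes came from was not tested. Neutrophil genes (led by *S100a8* and *S100a9*, called with *Ngp*, *Camp* and *Ltf*) summed to 76.4 to 1020 CPM in T10-L1 DRG and to at most 39.3 in the cranial ganglia, while the L3-L5 libraries had 5.06 to 526. The astrocyte list (*Gja1*, *Aqp4*) ranged from 75.0 to 476 CPM, the macrophage list (*Lyz2*, *Csf1r*) from 14.2 to 9150, the endothelial and mural list (*Cldn5*, *Acta2*, with *Acta2* and *Rgs5* called) from 12.8 to 1415 and the fibroblast list (*Dcn*, *Lum*) from 76.4 to 8933. *Apoe* and *Cdh19* were called among the satellite glia markers.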

How the data were processed

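RNA-seq of sorted sensory neurons was analysed from 16 libraries, 4 per ganglion. The deposited values are raw read counts per gene symbol, one file per library. The authors prepared oligo dT SMART-seq2 cDNA, sequenced single reads of 50 bp, demultiplexed them (bcl2fastq in the submitters' processing notes, CASAVA in the study's methods), aligned them to mm9 (TopHat2, default settings) and counted reads with HTSeq-count. The annotation, strand setting and tool versions are not given in the sources used here, so RPKM computed here from GENCODE exons on the same build may differ from the authors'. Of 22609 symbols, 21627 had a length. Reads without a gene were left out of library sizes (29.6% to 66.6% of counted and uncounted reads).

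Each library is described as an independent sort, and the animals behind it are not given, so p-values measure the spread between these libraries. Counts were tested with edgeR 4.0.16 in R 4.3.3 (TMM, filterByExpr, quasi-likelihood fit and test, Benjamini-Hochberg over all genes tested), over all 16 libraries and for 6 pairs on their own 8 libraries. The SE of a log2 fold change was its size divided by the square root of the F statistic. DESeq2 1.42.0 (Wald and likelihood-ratio tests), RLE factors, no filter, a replicate block, edgeR's likelihood-ratio test, one fit of all libraries, TMM-scaled RPKM and leaving out each library were alternatives, and leaving out the library with the fewest neuron marker reads of each ganglion was added after the data were examined. The test scripts were tested on simulated data for TG against T10-L1 DRG. There DESeq2 and the likelihood-ratio test called more of the unchanged genes than the quasi-likelihood test did. They also called more of the truly changed genes, of which the quasi-likelihood test missed the most. Same-numbered libraries correlated in their deviations at -0.12 to 0.177 and were not treated as pairs. The members and gene lists were chosen with earlier results of these data known.

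All 10 members were named, as were all other glutamate receptor genes by level, the called genes (up to 6) and the 2 highest genes by mean RPKM of each further list, and the 2 genes most like each member, except for some genes whose results are not reported here. Levels and figures were made in Python 3.11.15 (numpy 2.4.6, pandas 2.3.3, matplotlib 3.10.9).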

Additional observations from a re-analysis of the deposited data

Results flagged for a closer look

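In 5 of the 40 sets of 4 libraries (10 genes in 4 ganglia), 1 library stood apart from the other 3 by the ratio of its gap to the range. The usual rate of 1 in 20 for this ratio holds for normal values. CPM values are skewed and hold many zeros, so the share expected by chance is not known here. *Gria4* had 222 CPM in NG/JG 4 (2147 reads) and 14.2 to 39.8 CPM in the other NG/JG libraries. *Grin2b* had 10.3 CPM in L3-L5 DRG 4 (49 reads) and at most 0.389 CPM in the others. That library had the highest share of reads assigned to no gene. *Slc17a8* had 5.36 CPM in L3-L5 DRG 2 (54 reads) and 0.0824 to 0.845 CPM in the others. *Slc17a7* and *Grin2b* had 0.569 CPM (5 reads) and 0.455 CPM (4 reads) in NG/JG 2 and 0 in the other 3 NG/JG libraries, close to the floor of 3 counts. With 0 in the other 3 libraries the ratio is 1 whatever the count.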

How the results depend on the processing

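No member passed the main test in any of the 7 comparisons, and 100 of 112 recounts under the alternatives were the same. With DESeq2, 1 member passed over the 4 ganglia, 2 for TG against L3-L5 DRG, 1 for TG against T10-L1 DRG and 1 for NG/JG against L3-L5 DRG. With edgeR's likelihood-ratio test, 1 passed over the 4 ganglia, 1 for TG against L3-L5 DRG and 1 for NG/JG against L3-L5 DRG. These were 1 of 9, 1 of 7 and 1 of 7 members. Over all genes that test called 1525 of 14236, 858 of 12900 and 293 of 12240 in these comparisons. Without the library with the fewest neuron marker reads of each ganglion, chosen after the data were examined, 1 passed over the 4 ganglia, 2 for TG against L3-L5 DRG and 1 for TG against T10-L1 DRG. These were 1 of 10, 2 of 8 and 1 of 8 members. Over all genes that refit called 1170 of 14308, 2564 of 13204 and 3547 of 13339. With the replicate number as a block 1 member, *Grik1*, passed over the 4 ganglia and 0 in each pair, and since the numbers share no known animal or batch the block is no paired analysis. Leaving out 1 library at a time gave 0 to 1 members for TG against T10-L1 DRG and 0 in the other comparisons. The 1 was *Grik2* without TG 1 (adjusted p = 0.0375, edgeR), a fit in which 3583 of 13410 genes were called. The causes of these differences were not tested. Of 120 refits of the 8 fold changes with an unadjusted p under 0.05, none changed direction and 10 came to pass the threshold. All 40 mean RPKM values moved by less than 1 SD with TMM-scaled libraries. Over all genes, DESeq2 called 1667, edgeR 429 and its block 184 over the 4 ganglia, 1453 and 0 (edgeR) for TG against L3-L5 DRG, and 1947 and 758 for TG against T10-L1 DRG. For TG against NG/JG they called 460 and 6, for NG/JG against L3-L5 DRG 334 and 0, for NG/JG against T10-L1 DRG 388 and 4, and for L3-L5 against T10-L1 DRG 40 and 0. DESeq2 gave no adjusted p to *Gria4* in the 3 pairs with NG/JG or to *Slc17a7* for TG against T10-L1 DRG. Depth limits *Slc17a7*, *Slc17a8* and *Grin2b*, whose reads were at or under 3 in at least 1 library of every ganglion.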
